A study of Mus musculus with 9 samples.

Results

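Mitochondria keep a ribosome of their own, which translates the handful of respiratory chain proteins encoded by mitochondrial DNA. Its RNA comes from mitochondrial DNA, but all of its proteins are encoded in the nucleus, made in the cytosol and imported, and are named MRPL for the large subunit and MRPS for the small subunit. Some descend from bacterial ribosomal proteins and others are found only in mitochondria. In cytotoxic T cells, mitochondrial translation has been linked to sustained killing. The genes described here were all rows of the deposited table whose symbol was Mrpl or Mrps followed by a number and at most 1 letter. That gave 77 of 48709 rows, 48 Mrpl genes and 29 Mrps genes, spread over 17 chromosomes. Large and small subunit below go by these symbols, which follow historical names and do not always give the place of the protein. Another 5 rows that begin with Mrpl or Mrps are pseudogenes outside this rule (Mrpl23-ps1, Mrpl48-ps, Mrps36-ps1, Mrps36-ps2 and Mrps36-ps3) and were listed at 0 in all 9 libraries.

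The study sequenced RNA of mouse CD8+ T cells in 3 groups of 3 libraries. CTRL cells were without OVA peptide, the model antigen from chicken ovalbumin. OVA cells were given the peptide, and OVA/Citra cells were given the peptide and citraconate, a small dicarboxylate related to itaconate. The series asks how citraconate acts on the transcription of these cells; neither strain and genotype nor dose and time is given in the sources used here, and no group had citraconate without peptide. The extraction text names "PAS-T cells", a term it leaves undefined, for 8 libraries and OVA-stimulated T cells for OVA/Citra replicate 1. Since the labels do not say that replicates are separate cultures or animals, a p-value here rests on no more than the spread within groups. That spread was pooled over the 3 groups of 3 libraries, and it may be technical.

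Levels are in TPM (a share of all transcripts in a library, on a scale that allows for gene length), with the mean and SD of the 3 libraries in each group. Read counts were not given but worked back from the TPM values. They came to 14754470 to 17384330 reads per library, and each member had between 113 (Mrpl14 in OVA replicate 1) and 2084 of them in a library. All 77 members reached the mean of 1 TPM in at least 1 group that was required for testing. A member was called when its adjusted p from limma, taken over all 11971 genes tested, was under 0.05. Changes were taken on the scale of log2(TPM + 1), where those of low genes come out too small. T cell receptor transcripts were abundant in all libraries (Cd3e 374 to 1429 TPM), but cell type markers moved between the groups. The summed level of 12 T cell markers was 9212 to 9672 TPM in CTRL, 4444 to 5750 in OVA and 8178 to 8643 in OVA/Citra. Over 13 natural killer cell markers, many of them also induced in killer T cells, the sum was 309 to 367, 1412 to 1691 and 992 to 1069 TPM. The 9 B cell markers summed to 225 to 260, 59.2 to 89.7 and 57.1 to 89.3 TPM. Of these, Ighm had means of 214, 28.4 and 74.4 TPM, and Igkc went another way, with 16.9, 42 and 0.73 TPM. The 7 markers of CD4 and regulatory T cells summed to 61.8 to 70.1, 21.9 to 23.9 and 26.8 to 28.3 TPM. Of 10 myeloid markers, S100a8, S100a9 and Siglech were listed at 0 in every library, and their sum was 7.45 to 10.9, 740 to 1228 and 108 to 228 TPM. It came mostly from Cd68 in CTRL and nearly all from Fcer1g in OVA and OVA/Citra. The 8 stromal and epithelial markers summed to 44.4 to 47.95, 264 to 387 and 64.8 to 84.6 TPM, mostly from Pecam1, with Krt8 and Col3a1 listed at 0. The 7 erythroid and platelet markers reached 13.1 TPM at most. The part of these shifts in the results was not tested, and in bulk RNA fewer cells of a type and less RNA per cell cannot be told apart.

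Mitoribosomal protein transcripts were higher with OVA peptide than without it, and in the small subunit slightly lower again with citraconate. The 48 Mrpl genes summed to 2874 ± 37.99 TPM in CTRL, 3358 ± 34.9 in OVA and 3314 ± 55.3 in OVA/Citra (SD, n = 3). For the 29 Mrps genes the sums were 1511 ± 7.77, 1894 ± 3.46 and 1805 ± 12.1 TPM. The OVA libraries thus lay above every CTRL library in both subunits, and the small subunit also lay lower in every OVA/Citra library (1794 to 1818 TPM) than in any OVA library (1892 to 1898 TPM). The large subunit ranges of OVA (3318 to 3382 TPM) and OVA/Citra (3250 to 3350 TPM) overlapped. Together the 77 genes made 0.439% of all transcripts in CTRL, 0.525% in OVA and 0.512% in OVA/Citra. The sums were 1.17-fold (large) and 1.25-fold (small) higher in OVA than in CTRL. The ratio of the large to the small subunit sum was 1.89 to 1.92 in the CTRL libraries, 1.75 to 1.79 in OVA and 1.81 to 1.85 in OVA/Citra. The groups did not overlap. Mrps6, Mrps18b and Mrps28 weigh on this ratio, with means of 36.3, 40.9 and 37.0 TPM in CTRL and 125, 102 and 83.7 TPM in OVA. The median log2 change with OVA was 0.28 for Mrpl and 0.22 for Mrps genes. The ratio thus describes the sums and not a shift of the whole subunit.

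**Figure D1:**
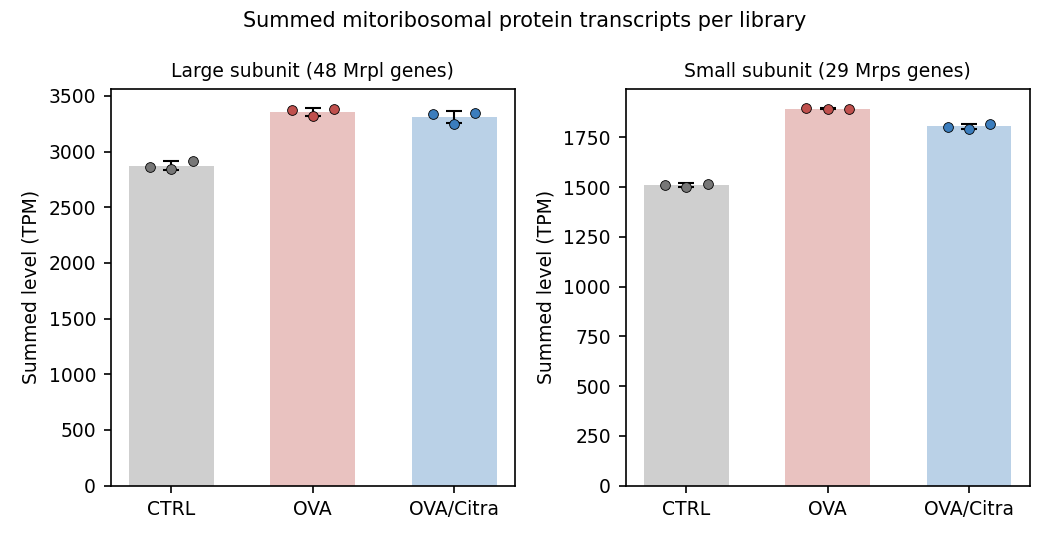
Summed level in TPM of the 48 Mrpl genes (left) and the 29 Mrps genes (right) in each library; bars are group means, error bars the SD over 3 libraries and points the libraries. OVA and OVA/Citra libraries lie above all CTRL libraries in both panels.

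Levels differed widely between members. Over all 9 libraries the highest Mrpl means were those of Mrpl42 (275 TPM), Mrpl12 (172 TPM) and Mrpl34 (159 TPM). Mrpl12 encodes the mitochondrial form of L7/L12, the flexible stalk protein that recruits translation factors. The lowest were Mrpl47 (10.1 TPM) and Mrpl1 (11.3 TPM), which encodes the protein of the stalk on the other side of the subunit. In the small subunit Mrps16 (187 TPM), Mrps21 (174 TPM) and Mrps23 (125 TPM) were highest, and Mrps35 (7.78 TPM) and Mrps10 (9.23 TPM) lowest. One subunit's transcripts were therefore far from equal in number. Among the most abundant members, Mrpl42, a mitochondria-specific protein, was at 209, 221 and 210 TPM in CTRL, at 344, 310 and 319 TPM in OVA and at 285, 274 and 307 TPM in OVA/Citra.

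In the comparison of OVA with CTRL, which asks what the peptide changed, most members of both subunits rose. Of 48 Mrpl genes 29 were called higher, 7 lower and 12 were not called, with a median log2 change of 0.28. Of 29 Mrps genes 18 were called higher, 3 lower and 8 were not called, with a median of 0.22. Among all genes tested 32.1% were called higher and 39.8% lower, and the median change was -0.08, so members were called higher more often (60.4% of Mrpl, 62.1% of Mrps) and lower less often than genes at large. With median of ratios scaling, in which the typical gene is set equal between libraries, the Mrps split was 20 higher and 0 lower and the Mrpl split 33 and 5, beside 36.8% and 35.8% of all genes. The 3 OVA libraries lay wholly above the 3 CTRL libraries for 30 Mrpl and 19 Mrps genes (33.7% of all genes), and wholly below for 9 and 3 (41.3%). Most changes were small: 4 members moved by 2-fold or more, Mrps6, Mrps18b and Mrps28 upward and Mrpl14 downward.

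Members with a bacterial counterpart and those specific to mitochondria both rose more often than they fell; the difference between these classes was not tested. In the large subunit 18 of 30 genes with a bacterial counterpart were called higher and 6 lower (median 0.28), and 11 and 1 of 18 mitochondria-specific genes (median 0.30). Among the Mrps genes the counts were 10 and 1 of 15 (median 0.29) and 6 and 1 of 10 (median 0.19). Left apart were the 3 paralogues related to bacterial S18 and Mrps36, whose product has since been assigned to the oxoglutarate dehydrogenase complex. Mrps36 was at 54.4 ± 2.80 TPM in CTRL, 58.0 ± 5.53 in OVA and 57.7 ± 4.71 in OVA/Citra and was not called in any comparison.

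**Figure D2:**
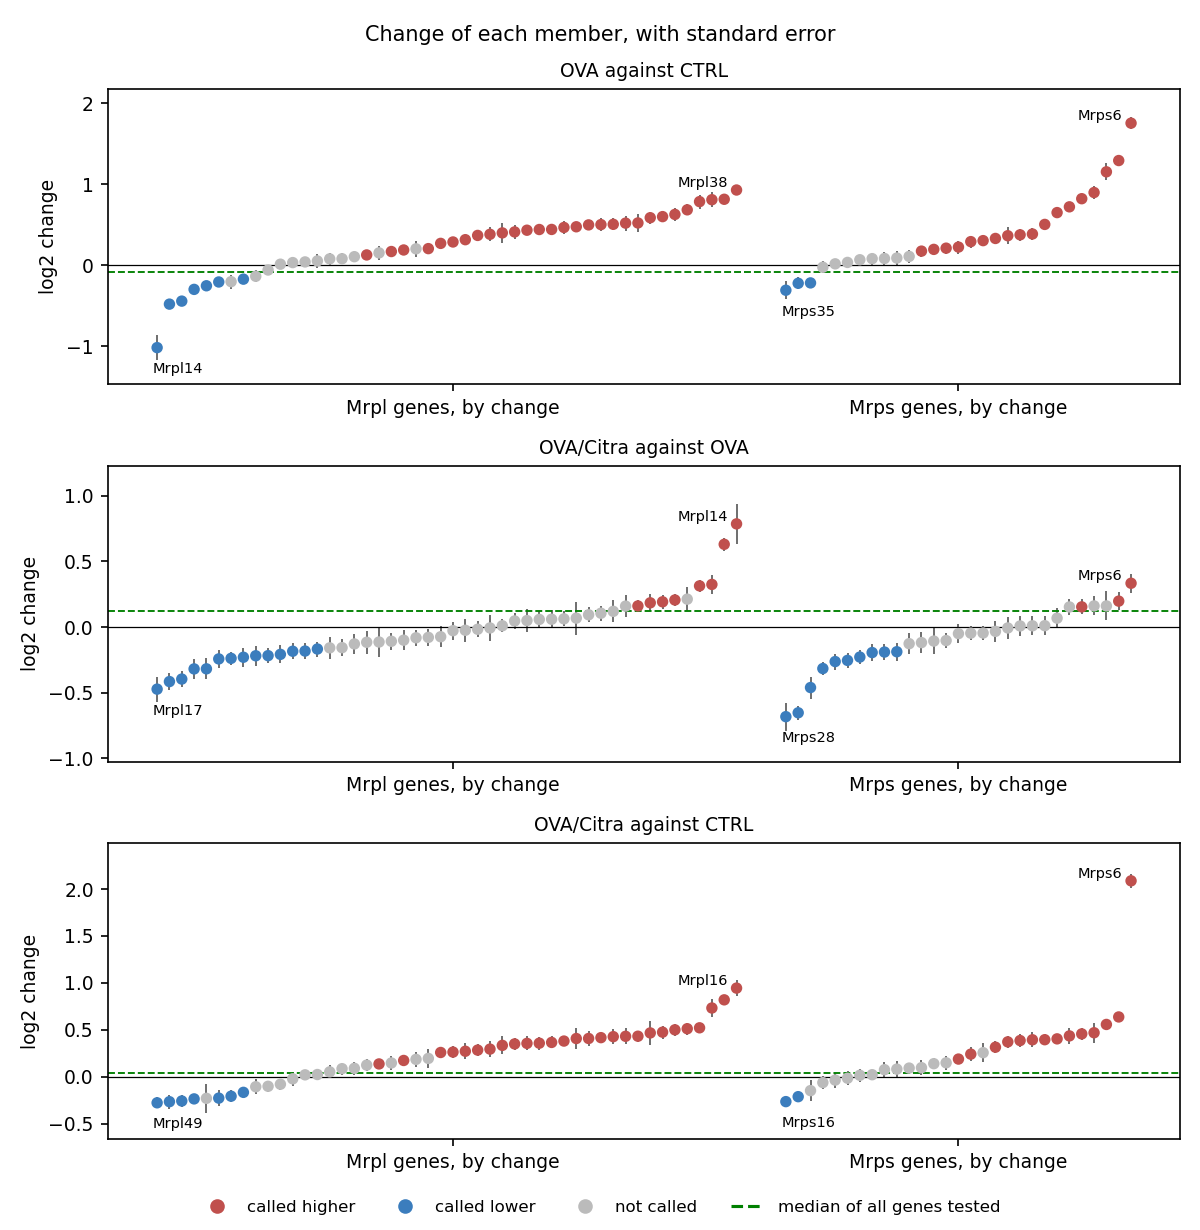
Log2 change of each member with its standard error (limma), Mrpl genes left and Mrps genes right, ordered by change, in the 3 comparisons; red and blue points passed an adjusted p of 0.05 and the dashed line is the median of all genes tested. In OVA against CTRL 47 of 77 members are red, and in OVA/Citra against OVA 24 are blue and 11 red.

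Promoter sequences are shown for 5 of the members with large changes, since these genes differ in how they moved. They are RefSeq sequences on GRCm38.p6, 5′ to 3′ on the gene's strand, the last 200 of the 300 bases that RefSeq's table gives around each start (250 before and 50 after). Capitals mark matches to the motifs of NRF1 (GCGCANGCG) and of ETS factors such as GABP (CCGGAAG) on either strand, both regulators with known targets among nuclear genes for mitochondrial proteins. Mrps6 is at chr16:92058186-92058385 (+), Mrps18b at chr17:35916391-35916590 (-), Mrpl17 at chr7:105811038-105811237 (-), Mrpl14 at chr17:45686199-45686398 (+) and Mrpl45 at chr11:97315566-97315765 (+).
Mrps6: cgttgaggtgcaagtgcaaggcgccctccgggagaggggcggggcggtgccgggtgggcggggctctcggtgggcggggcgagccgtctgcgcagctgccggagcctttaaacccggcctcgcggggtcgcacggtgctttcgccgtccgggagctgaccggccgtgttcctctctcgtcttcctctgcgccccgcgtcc
Mrps18b: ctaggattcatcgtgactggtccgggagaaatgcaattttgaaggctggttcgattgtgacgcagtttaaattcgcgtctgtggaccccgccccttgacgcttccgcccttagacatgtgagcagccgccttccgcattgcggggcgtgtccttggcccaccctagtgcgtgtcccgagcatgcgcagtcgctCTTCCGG
Mrpl17: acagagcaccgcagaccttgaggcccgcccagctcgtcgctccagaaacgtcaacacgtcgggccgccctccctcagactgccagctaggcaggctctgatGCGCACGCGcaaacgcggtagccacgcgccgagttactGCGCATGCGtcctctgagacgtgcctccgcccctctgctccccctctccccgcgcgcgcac
Mrpl14: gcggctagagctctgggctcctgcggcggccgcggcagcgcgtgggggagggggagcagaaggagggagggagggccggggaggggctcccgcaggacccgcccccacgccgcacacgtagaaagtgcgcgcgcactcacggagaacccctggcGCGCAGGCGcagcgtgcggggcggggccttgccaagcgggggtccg
Mrpl45: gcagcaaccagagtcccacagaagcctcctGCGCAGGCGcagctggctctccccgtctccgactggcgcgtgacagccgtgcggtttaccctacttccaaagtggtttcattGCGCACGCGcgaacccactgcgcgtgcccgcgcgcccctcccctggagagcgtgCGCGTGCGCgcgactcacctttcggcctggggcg
The window of Mrps6, the member with the largest increase, held neither of these motifs, nor YY1's AANATGGCG or the E-box CACGTG. Mrps18b held 1 ETS match, on the opposite strand, at the end of the window. Mrpl17 and Mrpl45 held 2 and 3 NRF1 matches, and Mrpl14, which fell with OVA, held 1. Outside the bases printed, Mrps18b had 1 NRF1 match and Mrpl17 1 ETS match. The shares that follow count all 300 bases of each promoter.

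Of the 77 members 68 had a promoter in the table. NRF1's motif lay in 23.5% of these 68, against 16.1% of the 8896 tested genes with a promoter and 7.03% of all 27025 promoters. The ETS core was found in 36.8%, against 21.5% and 9.93%, and the YY1 motif in 14.7%, against 6.47% and 2.76%. The E-box, read by MYC and its partners, lay in 7.35%, against 12% and 8.09%. At least 2 of the 4 motifs lay in 12 member promoters and none of them in 24; the motifs were searched on both strands. In OVA against CTRL, 9 of 16 members with the NRF1 motif were called higher (median 0.20) and 34 of 52 without it (median 0.31); for the ETS core 17 of 25 (median 0.33) and 26 of 43 (median 0.21). A match is a run of letters and not a site shown to be bound.

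Mrps6, which encodes the counterpart of bacterial S6, had the largest increase of the 77 genes. Its level was 38.2, 37.7 and 32.9 TPM in CTRL, 132, 114 and 128 TPM in OVA, and 159, 156 and 156 TPM in OVA/Citra. The 3 groups did not overlap, and the citraconate libraries were the highest. The log2 change of OVA against CTRL was 1.75 (SE 0.072, adjusted p = 2.88e-08, limma), and that of OVA/Citra against CTRL 2.09 (adjusted p = 2.09e-08). In GENCODE M21, an annotation of the older build GRCm38, exons of Mrps6 overlap, on the same strand, those of the predicted gene Gm49711 (19.9% of their length) and, over a shorter stretch, those of Slc5a3, the myo-inositol transporter gene. Slc5a3 stood at 0.951 ± 0.209 TPM in CTRL, 3.46 ± 0.416 in OVA and 4.33 ± 0.353 in OVA/Citra, and how reads of the shared stretches were divided is not known.

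Mrps18b and Mrps28 rose next most in the small subunit. Mrps18b was at 39.5, 41.3 and 41.9 TPM in CTRL, 98.2, 105 and 102 TPM in OVA and 60.7, 65.4 and 66.7 TPM in OVA/Citra. The citraconate libraries lay between the other groups without overlap. With OVA the change was 1.29 (SE 0.054, adjusted p = 3.41e-08, limma). In GENCODE M21 30.5% of its exon length is shared with the antisense gene Gm16279, so reads may be mixed if strand was not used. Mrps18b has paralogues, Mrps18a and Mrps18c, and the 3 went different ways. Mrps18a, whose protein sits in the large subunit in mammalian structures despite its name, went from 22.7 ± 2.01 TPM in CTRL to 29.7 ± 0.589 in OVA and 29.9 ± 0.837 in OVA/Citra. Its change with OVA was 0.38 (adjusted p = 0.00075, limma). Mrps18c, the member closest to bacterial S18, went from 56.5 ± 3.18 TPM to 48.3 ± 2.27 with OVA (-0.22, adjusted p = 0.019, limma) and was at 54.2 ± 4.52 TPM in OVA/Citra. That fall was lost under 7 settings, among them median of ratios (adjusted p = 0.141) and leaving out CTRL replicate 1 or 2 or OVA replicate 1 or 3 (adjusted p from 0.0552 to 0.0654). In GENCODE M21 23.2% of the exon length of Mrps18c is shared with Gm43511 on the same strand, so its reads are uncertain. Mrps28 was at 40.6, 34.4 and 36.1 TPM in CTRL, 75.7, 91.3 and 83.99 TPM in OVA and 44.0, 55.3 and 56.3 TPM in OVA/Citra. The citraconate libraries again lay between the others. The change with OVA was 1.15 (adjusted p = 4.97e-06, limma).

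**Figure D3:**
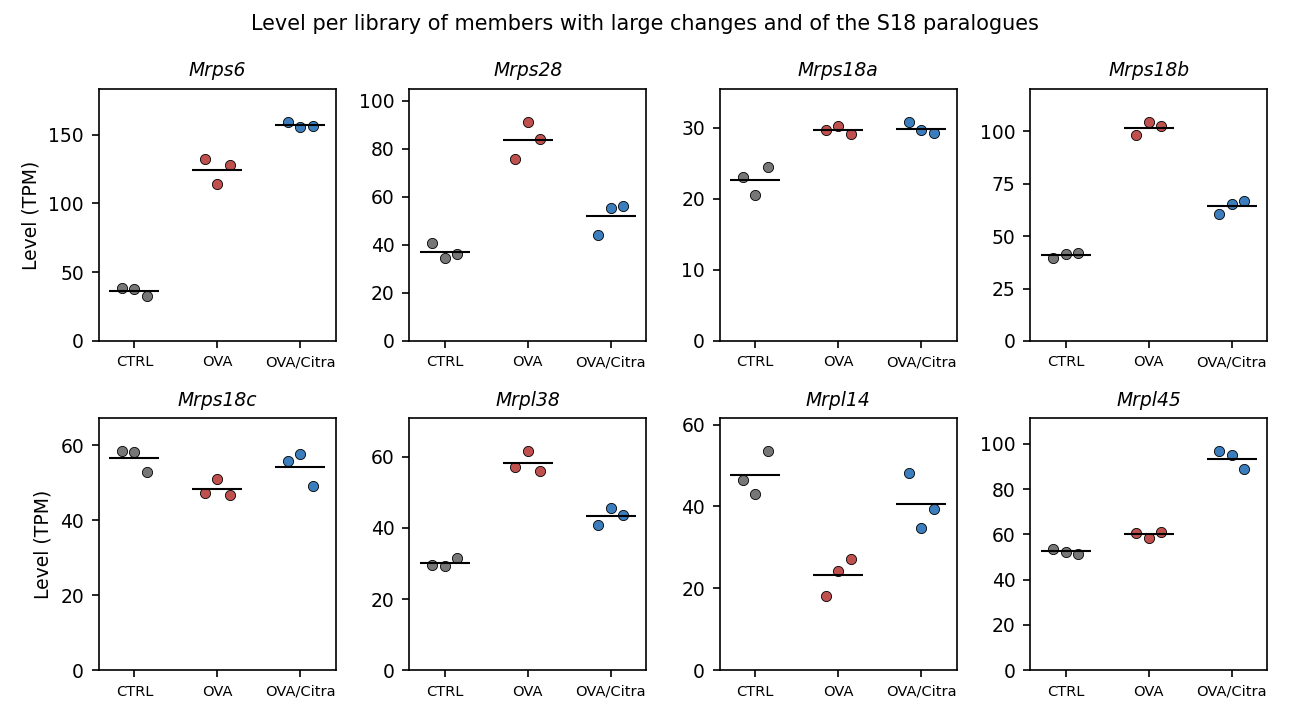
Level in TPM in each library (points) and group mean (line) of 8 members: Mrps6, Mrps28, the paralogues Mrps18a, Mrps18b and Mrps18c, Mrpl38, Mrpl14 and Mrpl45. Mrps18b, Mrps28 and Mrpl38 have their OVA/Citra points between the other groups, Mrps6 and Mrpl45 above both.

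In the large subunit the largest increases with OVA were those of Mrpl38, Mrpl20 and Mrpl17. Mrpl38, a mitochondria-specific protein of the central protuberance, was at 29.5, 29.2 and 31.6 TPM in CTRL, 57.1, 61.6 and 55.9 TPM in OVA and 40.9, 45.6 and 43.6 TPM in OVA/Citra. The groups did not overlap. Its change with OVA was 0.93 (SE 0.064, adjusted p = 6.79e-07, limma). Mrpl20 went from 60.9 ± 3.03 TPM to 108 ± 2.82 (0.81, adjusted p = 1.21e-06, limma), and was at 81.7 ± 5.51 TPM with citraconate. Mrpl17, which encodes a protein at the mouth of the exit tunnel, went from 8.27 ± 1.002 TPM to 15.2 ± 0.83 (0.81, adjusted p = 2.995e-05, limma) and was at 10.7 ± 0.671 TPM with citraconate.

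The members that fell with OVA were fewer. Mrpl14, which encodes a protein at the contact face between the subunits, was at 46.4, 43.0 and 53.5 TPM in CTRL, 18.2, 24.3 and 27.3 TPM in OVA and 48.1, 34.8 and 39.3 TPM in OVA/Citra. OVA libraries lay below all others, and CTRL and OVA/Citra overlapped. The fall was -1.02 (SE 0.153, adjusted p = 0.000171, limma); the gene had the fewest reads of the members, 113 to 352 per library. In GENCODE M21 its exons overlap those of Tmem63b on the opposite strand over 11.2% of their length. Mrpl24 fell from 79.7 ± 1.41 to 56.9 ± 1.21 TPM (-0.48, adjusted p = 7.94e-06, limma) and Mrpl54 from 154 ± 6.24 to 113 ± 6.72 TPM (-0.44, adjusted p = 0.000126). Both had intermediate means with citraconate, at 71.0 ± 2.21 and 129 ± 8.54 TPM. Mrpl24 shares 26.3% of its exon length with Rrnad1 on the opposite strand in GENCODE M21. The 3 Mrps genes called lower were Mrps16 (209 ± 12.6 to 180 ± 2.999 TPM, adjusted p = 0.00492, limma), Mrps18c and Mrps35 (8.69 ± 0.293 to 6.86 ± 0.739 TPM, adjusted p = 0.0289). With median of ratios scaling none of the 3 was called (adjusted p = 0.0611 for Mrps16 and 0.0609 for Mrps35). Mrps35 also lost its call under 7 other settings, among them leaving out CTRL replicate 1 (0.0752) or 2 (0.0731) or OVA replicate 1 (0.0687) or 2 (0.0938). Leaving out CTRL replicate 1 or 2 or OVA replicate 1 brought the count of Mrps genes called lower to 1.

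The comparison of OVA/Citra with OVA asks how adding citraconate to the peptide altered the cells. More members fell than rose, whereas among all genes increases were the more common. Of 48 Mrpl genes 8 were called higher, 14 lower and 26 were not called; of 29 Mrps genes 3 were higher, 10 lower and 16 not called. Over all genes tested 37.8% were called higher and 21.2% lower. All genes together had a median change of 0.12, so each change in this comparison is given unshifted, with the adjusted p that tests it, and also relative to that median. On that scale the median of the Mrpl genes was -0.17 and that of the Mrps genes -0.17; before the shift is taken off both were -0.05. Without OVA/Citra replicate 2 the unshifted Mrpl median was 0.0033. With median of ratios scaling, which removes the shift, the calls were 4 higher and 22 lower for Mrpl and 1 higher and 16 lower for Mrps, beside 29.1% and 30% of all genes. Groups did not overlap for 9 Mrpl and 4 Mrps genes that were higher (41.9% of all genes) and 17 and 12 that were lower (24.2%). The heat map by library shows these changes as smaller than those between CTRL and OVA.

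**Figure D4:**
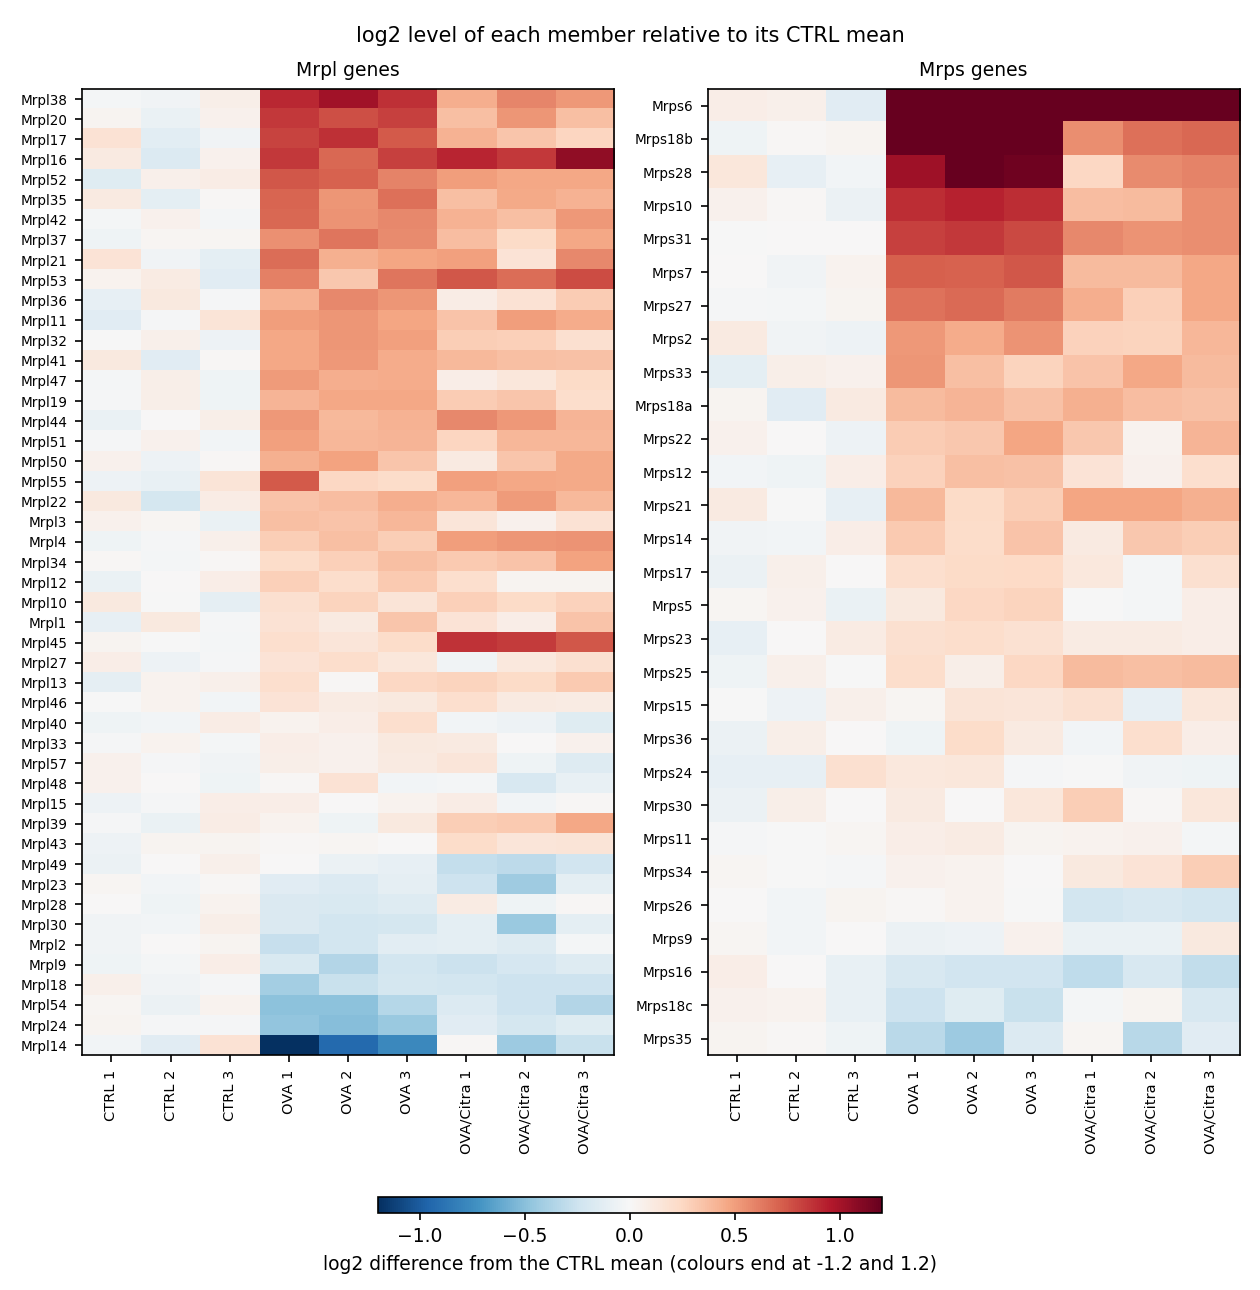
Log2 level of each member in each library (columns) relative to its CTRL mean, with Mrpl genes left and Mrps genes right, ordered by the change with OVA; colours end at the limits shown on the bar. Most rows are on the red side in the OVA columns (63 of 77 members had a log2 change above 0 with OVA). All 3 OVA libraries lay above all 3 OVA/Citra libraries for 29 members. Mrpl45 and Mrpl39 are among the rows that are reddest in the OVA/Citra columns. Mrps6 is past the end colour in both the OVA and the OVA/Citra columns.

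The members that fell most with citraconate were Mrps28, Mrps18b and Mrps10 in the small subunit. Their unshifted log2 changes were -0.68 (adjusted p = 0.000372, limma), -0.65 (adjusted p = 1.35e-05) and -0.46 (adjusted p = 0.000982). Relative to the median of all genes they were -0.81, -0.78 and -0.59. Mrps10, which encodes a protein of the head of the small subunit, was at 6.55, 6.34 and 5.95 TPM in CTRL, 12.4, 12.8 and 12.4 TPM in OVA and 8.43, 8.45 and 9.70 TPM in OVA/Citra, without overlap between groups. In the large subunit Mrpl17 (unshifted -0.47, adjusted p = 0.00187), Mrpl38 (-0.42, adjusted p = 0.00034) and Mrpl20 (-0.40, adjusted p = 0.000351) fell most, by limma. Their relative changes were -0.60, -0.54 and -0.52, and all 6 members were also called lower with median of ratios scaling. Each of these 6 lay between CTRL and OVA in level. Mrpl42 and Mrpl12, the most abundant Mrpl genes, were also called lower (324 ± 17.4 to 289 ± 16.4 TPM and 191 ± 6.87 to 168 ± 11.7 TPM), with adjusted p-values of 0.028 and 0.0277 from limma. Either call was lost under 5 settings, among them leaving out OVA replicate 1 (0.11 and 0.0733) or OVA/Citra replicate 2 (0.0845 and 0.0809). For Mrpl42 so did leaving out OVA/Citra replicate 1 (0.0744), and for Mrpl12 leaving out OVA replicate 3 (0.0766) or OVA/Citra replicate 3 (0.0952).

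Against this direction, Mrpl14, Mrpl45, Mrpl39 and Mrpl24 rose with citraconate. Mrpl45, which encodes a protein near the tunnel exit on the side of the inner membrane, was at 53.7, 52.3 and 51.5 TPM in CTRL, 60.4, 58.3 and 61.3 TPM in OVA and 96.8, 94.9 and 88.9 TPM in OVA/Citra. The citraconate libraries lay above the other 6. Its unshifted change was 0.63 (SE 0.051, adjusted p = 1.16e-05, limma) and its relative change 0.51. For Mrpl14 the unshifted change was 0.79 (adjusted p = 0.0015), for Mrpl39 0.33 (adjusted p = 0.0028) and for Mrpl24 0.31 (adjusted p = 0.000301), by limma, and the relative changes were 0.66, 0.20 and 0.19. With median of ratios scaling the limma adjusted p was 3.2e-05 for Mrpl45, 0.00379 for Mrpl14, 0.0365 for Mrpl39 and 0.00421 for Mrpl24. Mrpl39 had not been called with OVA alone (44.6 ± 2.72 TPM in CTRL, 45.7 ± 2.70 in OVA) and reached 57.5 ± 3.72 TPM with citraconate. In the small subunit Mrps6 rose further, by 0.33 unshifted (adjusted p = 0.00262, limma) and 0.21 relative to the median (adjusted p = 0.0203 with median of ratios scaling). Mrps25 (21.4 ± 1.43 to 24.7 ± 0.176 TPM, adjusted p = 0.0285) and Mrps34 (47.6 ± 0.821 to 53.1 ± 3.55 TPM, adjusted p = 0.0401) were called by limma as well, but neither was with median of ratios scaling (adjusted p = 0.385 and 0.777). Leaving out OVA replicate 2 or any 1 OVA/Citra replicate also ended the call of Mrps25 (adjusted p from 0.0512 to 0.105), and 15 of 20 settings that of Mrps34, among them leaving out any 1 library but OVA/Citra replicate 1 (adjusted p from 0.0508 to 0.154). Without OVA replicate 2 or OVA/Citra replicate 2, Mrps6 was the 1 Mrps gene called higher. In GENCODE M21 69.8% of the exon length of Mrps25 is shared with Nr2c2 and 63.4% of that of Mrps34 with Mapk8ip3, each on the opposite strand. Mrps34 also overlaps Nme3 on the same strand. Strand was not stated, so reads of these genes may not have been told apart.

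The last comparison, OVA/Citra against CTRL, sets peptide with citraconate beside neither. Of 48 Mrpl genes 27 were called higher, 7 lower and 14 not called (median 0.26), and of 29 Mrps genes 14, 2 and 13 (median 0.19). Among all genes 33.1% were called higher and 26.3% lower, with a median of 0.04. With median of ratios scaling the calls were 25 higher and 8 lower for Mrpl and 12 and 2 for Mrps, beside 30.2% and 29.2% of all genes. The citraconate libraries lay wholly above CTRL for 28 Mrpl and 14 Mrps genes (37.3% of all genes) and wholly below for 7 and 2 (30.1%). CTRL and OVA libraries also enter the other comparisons, so the 3 sets of calls are not independent. Here 13 of 18 mitochondria-specific Mrpl genes were called higher (median 0.35) and 14 of 30 with a bacterial counterpart (median 0.19), or 11 and 14 with median of ratios scaling. Among the Mrps genes the counts were 5 of 10 (median 0.22) and 7 of 15 (median 0.14), or 4 and 6 with that scaling. The difference between the classes was not tested. The largest increases in the large subunit were those of Mrpl16 (33.9, 27.8 and 32.5 TPM in CTRL, 59.9, 57.2 and 66.7 TPM in OVA/Citra; 0.95, adjusted p = 9.53e-06, limma), Mrpl45 (0.82, adjusted p = 7.33e-07) and Mrpl53 (34.4 ± 2.99 to 57.8 ± 2.48 TPM, 0.73, adjusted p = 9.03e-05). Mrpl16 encodes a core protein of the large subunit near the tRNA sites. Mrpl53 shares 88% of its exon length with the predicted gene Gm42688 on the same strand, so its reads are uncertain. In the small subunit Mrps6, Mrps18b (0.64, adjusted p = 5.94e-06, limma) and Mrps31 (0.56, adjusted p = 3.16e-05) rose most. Mrps31 went from 11.4 ± 0.0561 TPM in CTRL to 20.8 ± 0.48 in OVA and 17.2 ± 0.275 in OVA/Citra.

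Below CTRL in the citraconate libraries were Mrpl49, Mrpl23 and Mrpl54 with the largest falls (-0.28, -0.26 and -0.26), Mrpl18 (-0.23), and Mrps16 and Mrps26 (-0.26 and -0.21), with limma adjusted p-values from 0.00215 to 0.0115. Mrpl49 was at 42.6, 45.1 and 47.0 TPM in CTRL, 44.9, 42.6 and 41.8 TPM in OVA and 36.6, 35.9 and 38.2 TPM in OVA/Citra. CTRL and OVA overlapped, and the citraconate libraries lay below both. Mrps26 showed the same order, with 35.6 ± 0.792, 36.1 ± 0.541 and 30.6 ± 0.32 TPM. Mrpl14, lowered by OVA, did not differ from CTRL past the test (-0.23, adjusted p = 0.224, limma).

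**Figure D5:**
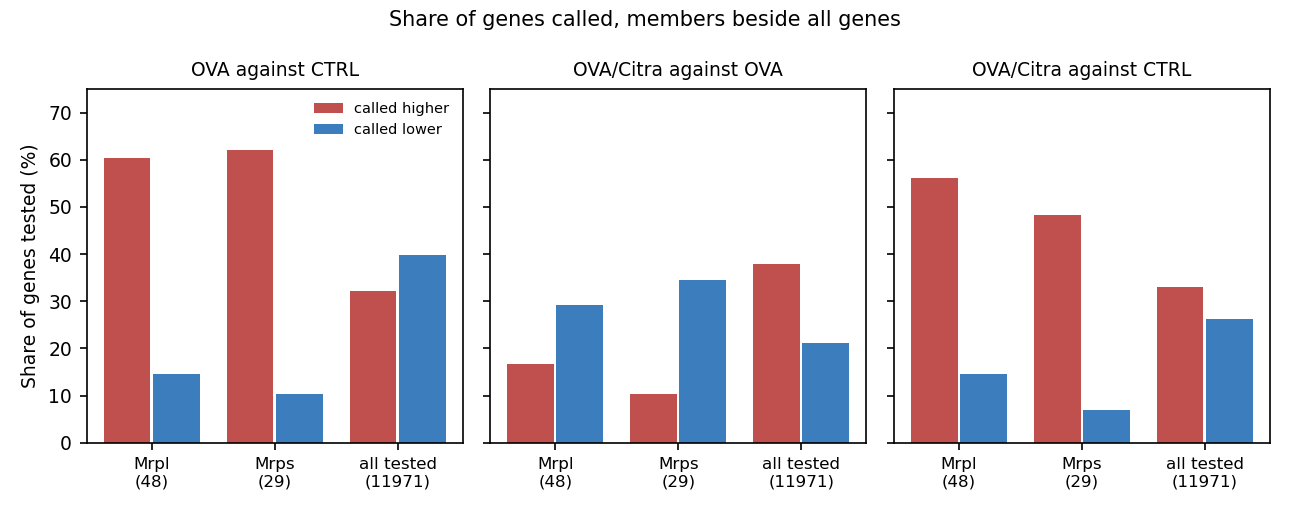
Share in percent of genes called higher (red) and lower (blue) by limma among the Mrpl genes, the Mrps genes and all genes tested, in the 3 comparisons. Members are called higher about as often in both subunits with OVA (60.4% and 62.1%, against 32.1% of all genes).

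Other genes needed for mitochondrial translation were counted from lists, to be read against the shares of all genes called higher and lower. These were 32.1% and 39.8% with OVA, 37.8% and 21.2% with citraconate against OVA, and 33.1% and 26.3% with citraconate against CTRL. With median of ratios scaling they were, in the same order, 36.8% and 35.8%, 29.1% and 30%, and 30.2% and 29.2%. Mitoribosome proteins with other symbols went both ways with OVA: of 5, Ptcd3 (18.7 ± 1.06 to 27.7 ± 0.879 TPM) was among the 3 that rose, and Dap3 fell (22.7 ± 2.18 to 14.3 ± 2.07 TPM, adjusted p = 0.000397, limma). Dap3, the GTP-binding protein of the small subunit, was the 1 of 5 called with citraconate against OVA, where it stood at 23.4 ± 1.53 TPM. With median of ratios scaling 1 of the 5 was called higher and 2 lower, Ptcd3 among the latter (adjusted p = 0.00633, limma). Translation factors rose with OVA in 7 of 14 cases, and the other 7 were not called (median 0.23). Of these, Gfm1, an elongation factor, went from 27.6 ± 1.06 to 42.9 ± 1.58 TPM and Lrpprc, which stabilises mitochondrial messenger RNA, from 22.9 ± 1.61 to 37.6 ± 3.002 TPM. With citraconate against OVA 2 of the 14 were higher and 3 lower, and 1 and 8 with median of ratios scaling. Lrpprc was back at 24.3 ± 0.709 TPM, and Tsfm, the exchange factor of elongation factor Tu, rose from 17.7 ± 0.486 to 24.2 ± 1.2 TPM. Against CTRL, 8 of 14 were higher in OVA/Citra and 6 were not called.

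Genes for assembly of the mitoribosome and modification of its RNA were split with OVA, 11 higher and 6 lower of 27 (median 0.11). Fastkd2 rose from 7.07 ± 0.547 to 14.8 ± 1.10 TPM and Wbscr16 (now Rcc1l) from 11.5 ± 1.67 to 19.9 ± 1.76 TPM, both known from assembly of the large subunit. With citraconate against OVA, 11 were higher and 4 lower, beside 37.8% and 21.2% of all genes. With median of ratios scaling 2 were higher and 8 lower, beside 29.1% and 30%. The share higher without that scaling and the share lower with it were near those of all genes. Rbfa, a maturation factor of the small subunit, went from 75.1 ± 7.07 to 93.8 ± 2.92 TPM and Mpv17l2 from 47.1 ± 2.43 to 39.3 ± 2.76 TPM. Compared with CTRL, 12 were higher and 3 lower in OVA/Citra. Mitochondrial aminoacyl-tRNA synthetases were split as well, 8 higher and 5 lower of 20 with OVA, 6 and 3 with citraconate against OVA, and 8 and 2 against CTRL. Median of ratios scaling made the first 8 and 3 and the next 4 and 4. Rars2 rose with OVA (19.7 ± 0.877 to 32.8 ± 0.93 TPM), as did Qrsl1, a subunit of the glutamyl-tRNA amidotransferase (4.70 ± 0.746 to 9.14 ± 0.717 TPM). Of 14 genes for mitochondrial DNA upkeep and transcription 4 were higher and 6 lower with OVA, 3 and 2 with citraconate against OVA (2 and 3 with median of ratios scaling), and 3 and 4 against CTRL; the shares with OVA were near those of all genes. Tfb2m, a transcription initiation factor, rose with OVA (18.8 ± 0.832 to 30.8 ± 1.78 TPM) and Tfam, which packages mitochondrial DNA, fell (28.7 ± 0.706 to 18.5 ± 1.29 TPM).

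The messengers that the mitoribosome translates were mostly not called in the OVA comparison. Of 13 mitochondrially encoded protein genes 1, mt-Cytb, was called higher and 1, mt-Co1, lower (adjusted p = 0.0487, limma), and 2 were called higher with median of ratios scaling. The call of mt-Co1 was lost under many settings. Among them were median of ratios scaling (limma adjusted p = 0.124), no filter on low values (0.127) and a fit of only the 2 groups compared (0.0507). It was lost as well without any 1 CTRL replicate (from 0.093 to 0.119), OVA replicate 2 (0.147) or OVA/Citra replicate 3 (0.0628). With citraconate against OVA 6 were higher and 7 not called, beside 37.8% of all genes called higher. With median of ratios scaling 2 were higher, beside 29.1% of all genes. Against CTRL 9 were higher and 4 not called, beside 33.1% of all genes called higher (7 were higher with that scaling, beside 30.2%). The call of mt-Co1 against CTRL (adjusted p = 0.0386, limma) was lost with median of ratios scaling (0.061) and with quantile normalization (0.803). It was also lost without any 1 CTRL replicate and without OVA/Citra replicate 2 (0.112) or 3 (0.104). mt-Co1 was at 14420, 13860 and 13810 TPM in CTRL, 12440, 8329 and 12460 TPM in OVA and 16050, 20510 and 19460 TPM in OVA/Citra, with the citraconate libraries highest. The mitochondrial ribosomal RNAs mt-Rnr1 and mt-Rnr2 were listed at 0 in all libraries. Among 9 tested regulators of genes for mitochondrial proteins 4 were higher and 2 lower with OVA, 2 and 3 with citraconate against OVA (1 and 4 with median of ratios scaling), and 2 and 2 against CTRL. Myc fell from 652 ± 6.45 to 152 ± 29.8 TPM with OVA and stood at 548 ± 12.2 TPM with citraconate. Pprc1, a coactivator related to PGC-1, went the other way, at 18.3 ± 1.23, 28.7 ± 0.605 and 18.6 ± 1.12 TPM. Cytosolic ribosomal protein genes, taken by symbol after values had been seen, fell with OVA in 67 of 79 tested cases and rose in 5 (median -0.43). Of all genes 39.8% fell and 32.1% rose with OVA. With citraconate against OVA 52 were higher and 4 lower, beside 37.8% and 21.2% of all genes, but 11 and 8 with median of ratios scaling, beside 29.1% and 30%. Against CTRL most stayed lower in OVA/Citra, with 3 higher and 47 lower (median -0.22), or 3 and 54 with that scaling. The shares of all genes there were 33.1% and 26.3%, or 30.2% and 29.2% with that scaling.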

How the data were processed

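RNA of 9 libraries in 3 groups of 3 was analysed from 1 table of TPM that the authors deposited. Its name says FPKM, as the planned design allowed, but every column sums to 1000000 and the same test was used. The build GRCm39, Salmon and Trim Galore 0.5.0 are named in the submitters' processing notes; neither annotation nor strand is given in the sources used here. Whole read counts could be worked back for 16734 of 16734 genes above 0 in at least 2 libraries (100%, tolerance 0.0001 reads or 3e-08 of the count). Log2(TPM + 1) was fitted for 11971 genes (those whose mean reached 1 TPM in some group) over all 9 libraries with limma 3.58.1 in R 4.3.3 (lmFit, eBayes with a trend). P-values are two-sided, adjusted by Benjamini-Hochberg per comparison and called under 0.05. The steps were tested on simulated data. Alternatives were 20 settings per comparison: pseudocounts of 0.1 and 5, no filter or a mean of 5 TPM, other scalings, fits and samples. Members and lists were chosen with earlier results of these data known. Named members were the highest and lowest, the 3 largest changes each way per comparison and subunit, those against the majority, and the S18 paralogues; of each list, at most the 2 with the smallest adjusted p in a comparison. Per-list symbols Mrm3, Rcc1l and Twnk were matched as Rnmtl1, Wbscr16 and Peo1, and Mtrfr and Itgam were not matched. Exon overlaps are from GENCODE M21 (GRCm38), not the authors' build.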

Additional observations from a re-analysis of the deposited data

How the results depend on the processing

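Each comparison was repeated under 20 settings. Of the subunit counts of called genes, 228 values stayed within 1.5 times the main count and 12 moved. Counted per member, comparison and setting, a named member's call was lost in 66 cases, gained in 20 and reversed in none. The Mrps genes called lower with OVA (3) were 0 with median of ratios scaling, 1 with granzyme, ribosomal protein and mitochondrially encoded genes left out, and 1 to 3 with 1 library left out. For OVA/Citra against OVA, median of ratios scaling gave 4 Mrpl genes higher, 22 lower, and 1 Mrps gene higher, 16 lower. Quantile normalization gave 1 Mrps gene higher, and leaving out 1 library 1 to 3 higher. The causes were not tested.

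The labels do not say that a replicate number is shared, and of 9 same-numbered pairs of libraries 3 correlated above 0.1 in their deviations (range -0.012 to 0.304), so the numbers were not taken as pairs. The 3 libraries numbered 2 each correlated best with their own number in both other groups, a hint from the data, not the design. With the replicate number as a block, Mrpl and Mrps calls were 28 and 17 higher and 8 and 3 lower for OVA against CTRL, 8 and 4 higher and 14 and 10 lower for OVA/Citra against OVA, and 28 and 14 higher and 7 and 2 lower for OVA/Citra against CTRL. Depth limits mainly Mrpl14, with 113 reads in its lowest library.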

Other observations

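Ict1, the older symbol of the mitoribosomal protein gene Mrpl58, is outside the symbol rule and was looked at after values had been seen. It was at 27.1, 26.5 and 28.2 TPM in CTRL, 18.8, 17.4 and 18.5 TPM in OVA and 20.4, 18.2 and 19.8 TPM in OVA/Citra, so that both peptide groups lay below CTRL. Its log2 change with OVA was -0.56 (adjusted p = 3.6e-05, limma) and that of OVA/Citra against CTRL -0.47 (adjusted p = 0.000212). Citraconate against OVA gave 0.09 before the median shift is taken off (adjusted p = 0.273).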
